A study of Homo sapiens with 6 samples.

Results

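The genes examined are the Janus kinases JAK1, JAK2 and TYK2 and the signal transducers and activators of transcription STAT2, STAT3, STAT5A, STAT5B and STAT6. These 8 members were listed by name and found by their Ensembl identifiers among the 60612 genes of each library. RNA had been sequenced in 6 libraries of HCT116, a cell line established from a human colorectal carcinoma. In 3 of them the cells carried the control lentivirus LV-NC and in 3 they carried LV-SNORA28, a lentivirus with the gene of the small nucleolar RNA SNORA28. Per the methods of the study, cells were collected 72 h after infection, and the labels name no further treatment in either group. The methods also describe a puromycin selection of stably overexpressing cells for 72 h. Whether the sequenced cells had been selected is not stated there. Whether the infected cells were 1 clone or a mixed population is not given in the sources used here, nor is whether the replicates were separate cultures, so p-values measure only the spread between these libraries. The study followed signalling through JAK1 and STAT3 in these cells. The comparison asks which of the kinases and factors differed in mRNA level between the groups, and whether the difference was shared within the family.

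Cytokine receptors have no kinase domain of their own. A JAK bound to the inner part of the receptor is switched on when the ligand joins the receptor chains, and it then phosphorylates the receptor and the STAT that docks there. The phosphorylated STATs pair through their SH2 domains, enter the nucleus and bind DNA. STAT3 is the main factor of the gp130 family of receptors, which binds interleukin 6, leukemia inhibitory factor and oncostatin M, and its activity is often high in colorectal tumors. The values below are mRNA levels and do not measure phosphorylation.

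The step that joins the 2 families is the phosphorylation of tyrosines, and the coding sequence around these sites is shown because these sites carry the signal from one family to the other. In the kinases, a pair of neighbouring tyrosines in the activation loop is phosphorylated when the kinase is switched on. In the STATs, a single tyrosine behind the SH2 domain is phosphorylated by the JAK. The codons of these tyrosines are in capitals, in the canonical transcripts of GENCODE release 44 on GRCh38, 5′ to 3′ on the coding strand.
JAK1: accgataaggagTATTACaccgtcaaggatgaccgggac
JAK2: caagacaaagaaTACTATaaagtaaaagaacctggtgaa
TYK2: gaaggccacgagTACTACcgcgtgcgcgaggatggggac
STAT2: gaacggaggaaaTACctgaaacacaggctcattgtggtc
STAT3: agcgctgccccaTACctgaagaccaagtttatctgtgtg
STAT5A: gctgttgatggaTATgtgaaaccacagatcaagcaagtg
STAT5B: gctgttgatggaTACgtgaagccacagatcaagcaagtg
STAT6: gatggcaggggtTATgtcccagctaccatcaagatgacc

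The tyrosine codons were residues 1034 and 1035 of JAK1 (chr1:64837967-64837972, minus strand), 1007 and 1008 of JAK2 (chr9:5090871-5090876, plus strand) and 1054 and 1055 of TYK2 (chr19:10352961-10352966, minus strand). In the STATs they were residue 690 of STAT2 (chr12:56346178-56346180, minus strand) and residue 705 of STAT3 (chr17:42317211-42317213, minus strand, exon 22 of 24). They were residue 694 of STAT5A (chr17:42309064-42309066, plus strand), residue 699 of STAT5B (chr17:42202789-42202791, minus strand) and residue 641 of STAT6 (chr12:57099047-57099049, minus strand). All 8 sites are coding and exonic. STAT5A and STAT5B, the pair that answers growth hormone and prolactin, shared 93.9% of aligned residues, while STAT3 shared 34.2% with STAT5A and 40.5% with STAT2. The same closeness was visible in the transcripts. Of all stretches of 50 bases in the STAT5A transcript, 13.6% also occurred in STAT5B, so reads of these genes are uncertain in part. For STAT3 that share was 1.44% against all other annotated genes, and for JAK1, JAK2, TYK2 and STAT6 it was 0%.

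The libraries were checked first. SNORA28 was listed at 0.92, 0 and 0.64 FPKM (a fragment count relative to transcript length and to all mapped fragments) in LV-NC, against 15.01, 13.66 and 15.2 FPKM in LV-SNORA28, which matches the labels. The libraries held 24231 to 25771 genes with a value above 0, and the read depth of the libraries is unknown. Genes encoded in mitochondria made up 42.7% to 47.7% of all FPKM in LV-NC against 35.9% to 38.3% in LV-SNORA28. Of 6 epithelial markers, all passed the filter and none was called, and their summed level was 786 to 874 FPKM in LV-NC and 807 to 856 FPKM in LV-SNORA28. The 6 blood cell markers summed to at most 0.44 FPKM in any library, and the 6 fibroblast markers to at most 4.52 FPKM, with 3 of them at 0 throughout. COL1A1 was the 1 fibroblast marker that passed the filter, at 3.16 to 4.46 FPKM, and it was not called.

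STAT3 was the member that differed between the groups. It measured 6.52, 6.06 and 6.05 FPKM in LV-NC, against 9.83, 8.97 and 9.95 FPKM in LV-SNORA28. All 3 LV-SNORA28 libraries lay above all LV-NC libraries, with a gap wider than the spread of either group. The means were 6.21 ± 0.269 FPKM (SD, n = 3) and 9.58 ± 0.535 FPKM (SD, n = 3), a ratio of 1.54. On log2(FPKM + 1) STAT3 rose by 0.55 (SE 0.07, 95% interval 0.39 to 0.72), with an adjusted p of 0.00986 in limma over the 12076 genes that averaged 1 FPKM or more. In bulk RNA, more cells with the transcript and more transcript per cell cannot be told apart.

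**Figure D1:**
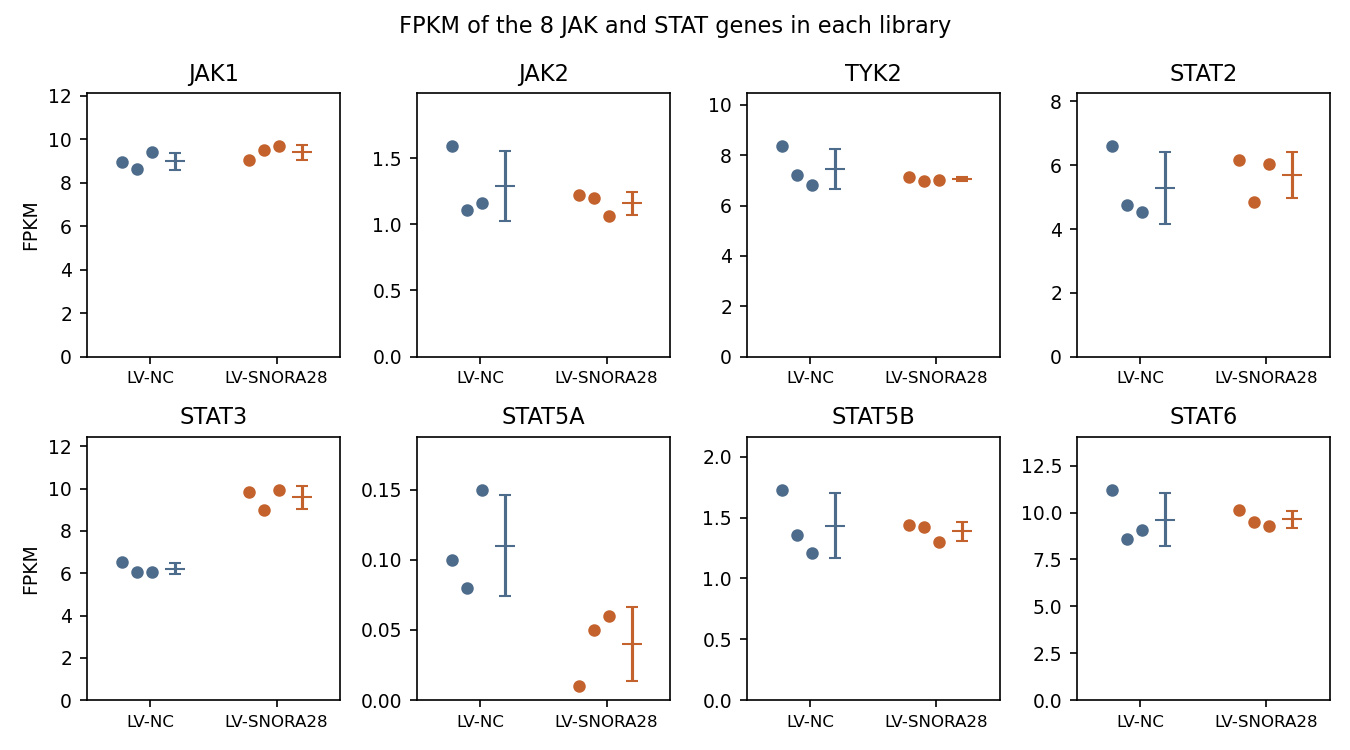
FPKM (vertical axis, from 0, scaled to each gene) of the 8 JAK and STAT genes in the 3 LV-NC libraries (blue) and the 3 LV-SNORA28 libraries (orange), with mean and SD beside the points. The STAT3 libraries separate at 6.05 to 6.52 against 8.97 to 9.95 FPKM, STAT5A lies at or below 0.15 FPKM in every library, and the points of the other 6 genes overlap.

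None of the kinases passed the test. JAK1, the kinase that serves most gp130 and interferon receptors, had 8.93, 8.63 and 9.41 FPKM in LV-NC against 9.02, 9.52 and 9.68 FPKM in LV-SNORA28. The 2 groups of JAK1 values overlapped, and the log2 fold change was 0.06 (95% interval -0.09 to 0.21, limma adjusted p 0.593). That interval leaves room for a ratio of 0.937 to 1.16 on the log2(FPKM + 1) scale, and its upper end lies below the lower end of the STAT3 interval.

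JAK2, which serves the receptors of growth hormone, erythropoietin and prolactin, was the lowest of the 3 kinases among the members. It measured 1.59, 1.11 and 1.16 FPKM in LV-NC, against 1.22, 1.2 and 1.06 FPKM in LV-SNORA28. LV-NC replicate 1 was the highest of the JAK2 values, and the other 5 lay between 1.06 and 1.22 FPKM. The log2 fold change of JAK2 was -0.08 (95% interval -0.33 to 0.18, limma adjusted p 0.685), and it was 0.02 without LV-NC replicate 1.

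TYK2, the partner of JAK1 at the interferon α/β receptor, showed the same arrangement at a higher level. It had 8.36, 7.21 and 6.83 FPKM in LV-NC against 7.13, 6.99 and 7.01 FPKM in LV-SNORA28. LV-NC replicate 1 again stood highest, while the LV-SNORA28 libraries had an SD of 0.0757 FPKM. The log2 fold change of TYK2 was -0.07 (95% interval -0.27 to 0.13, limma adjusted p 0.625). Summed over the 3 kinases, the level was 17.7 ± 1.01 FPKM (SD, n = 3) in LV-NC against 17.6 ± 0.209 FPKM (SD, n = 3) in LV-SNORA28.

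Among the other STATs, STAT2, which joins IRF9 in the interferon-stimulated gene factor, had the largest SE of the log2 fold change among the members tested (0.15). It measured 6.6, 4.75 and 4.55 FPKM in LV-NC, against 6.15, 4.86 and 6.05 FPKM in LV-SNORA28. High and low libraries occurred in both groups, and the log2 fold change of STAT2 was 0.09 (95% interval -0.25 to 0.44, limma adjusted p 0.715). This interval reaches above the lower end of the STAT3 interval. Without LV-NC replicate 1 the STAT2 log2 fold change was 0.24, limma adjusted p 0.238.

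STAT6, the factor of interleukin 4 and interleukin 13, was the most abundant member in LV-NC. It measured 11.22, 8.59 and 9.05 FPKM there, against 10.15, 9.49 and 9.3 FPKM in LV-SNORA28. All LV-SNORA28 values fell within the range of the LV-NC values, and the log2 fold change was 0.01 (95% interval -0.24 to 0.26, limma adjusted p 0.959). STAT6 overlaps LRP1 by 3657 bases and NAB2 by 69 bases on the opposite strand.

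STAT5B and STAT5A were the lowest STATs among the members. STAT5B had 1.73, 1.36 and 1.21 FPKM in LV-NC against 1.44, 1.42 and 1.3 FPKM in LV-SNORA28. Here too the LV-SNORA28 values fell within those of LV-NC, and the log2 fold change was -0.02 (95% interval -0.27 to 0.22, limma adjusted p 0.910). STAT5A was close to the lowest values the files record. It measured 0.1, 0.08 and 0.15 FPKM in LV-NC, against 0.01, 0.05 and 0.06 FPKM in LV-SNORA28, so it did not pass the filter on low values. Its groups did not overlap, but these are differences of hundredths of an FPKM, and in the unfiltered limma fit the STAT5A adjusted p was 0.279 (unadjusted 0.0319). STAT5A and STAT5B overlap head to head by 1087 bases, and whether reads were assigned by strand is not given in the sources used here.

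**Figure D2:**
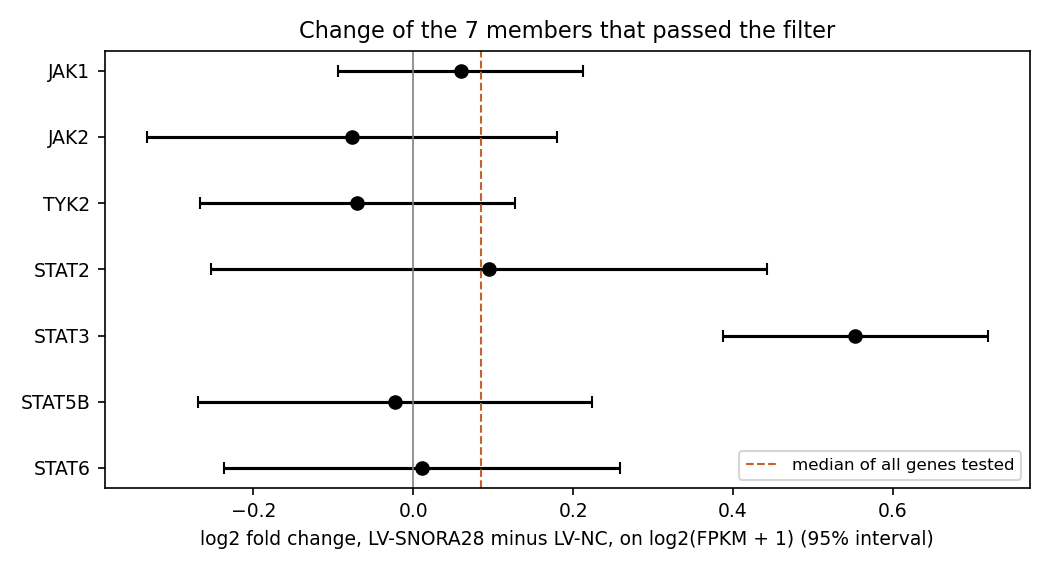
Log2 fold change of each member that averaged 1 FPKM or more, LV-SNORA28 minus LV-NC, on the log2(FPKM + 1) scale, with its 95% interval from limma. The orange dashed line marks the median of all genes tested, 0.09. STAT3 at 0.55 is the single interval that lies wholly above 0, and the other 6 intervals include both 0 and that median.

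Of the 7 members tested, 1 was called and it was higher in LV-SNORA28. Among all genes tested, 8.91% were called in either direction and 6.81% were called higher, so a single call among 7 members says little about them as a group. The groups did not overlap, with LV-SNORA28 higher, for the same 1 of 7 members and for 27.0% of all genes. No tested member had groups that lay apart in the other direction, against 8.16% of all genes. The median log2 fold change of the 7 members was 0.01, and that of all genes tested was 0.09. The direction of the small changes depended on the scaling, and JAK1, JAK2, TYK2, STAT2, STAT5B and STAT6 each changed sign under at least 1 alternative without passing the test in any.

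Within the whole fit, STAT3 was high but not at the top. It ranked 444 of 12076 by log2 fold change, so that 3.67% of genes had a larger one, and 155 by p-value. Of the 822 genes called higher, 253 (30.8%) had a larger log2 fold change than STAT3, and the median of the 822 was 0.46. The split of all calls was 822 higher and 254 lower, 451 and 375 after quantile normalization, and 1895 and 135 after rescaling to TPM, which raised the median of all genes to 0.24. The rise of STAT3 above the median of all genes was 0.47 in the fit as reported, 0.46 after quantile normalization, 0.47 after scaling to the FPKM sum of nuclear genes, and 0.51 on TPM. With the mitochondrial genes left out of the scale, the STAT3 change itself was 0.53 in place of 0.55.

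The thresholds set by the study were a p below 0.05 and a fold change above 1.5. With p taken as unadjusted here, they were met by 3.79% of all genes tested. Of the 7 members 0 met them in limma. STAT3 alone had an unadjusted limma p below 0.05, at 0.000127, and 1.28% of all genes tested had a lower one. The fold of STAT3 was 1.47 on log2(FPKM + 1), just below the limit, because the added 1 lowers the ratio. STAT3 met the threshold with a pseudocount of 0.1 (fold 1.53), on TPM (fold 1.67) and without LV-SNORA28 replicate 2 (fold 1.51).

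The difference between STAT3 and each of the others was then examined within libraries, where the scaling of a library cancels apart from the pseudocount. For each library the log2(FPKM + 1) of the other member was subtracted from that of STAT3. Against JAK1 this gave -0.40, -0.45 and -0.56 in LV-NC and 0.11, -0.08 and 0.04 in LV-SNORA28. STAT3 thus lay below JAK1 in LV-NC and at about its level in LV-SNORA28. The change of STAT3 exceeded that of JAK1 by 0.49 (SE 0.07), and every LV-SNORA28 library lay above every LV-NC library.

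The other 6 comparisons had the same form. STAT3 gained 0.63 (SE 0.09) over JAK2, 0.62 (SE 0.06) over TYK2, 0.65 (SE 0.07) over STAT5A, 0.58 (SE 0.09) over STAT5B, 0.54 (SE 0.09) over STAT6 and 0.46 (SE 0.12) over STAT2. The gain over STAT5A, which lay at or below 0.15 FPKM, is set by the pseudocount and was 1.21 with a pseudocount of 0.1. With that pseudocount the gains over the other members were larger too, from 0.51 over STAT2 to 0.74 over JAK2. The groups did not overlap in any of the 7 comparisons. The exact two-sided permutation p was 0.1 in each, before and after Benjamini-Hochberg adjustment over the 7 pairs, which is the smallest that 3 against 3 libraries allow. The gain over STAT2 was the smallest and had the largest SE. Against STAT2, LV-NC replicate 1 was at -0.02 and the other LV-NC libraries at 0.296 and 0.345, while the lowest LV-SNORA28 library was at 0.599. When STAT3 was set against each of the other 12075 genes tested in the same way, 77.4% gave no overlap with LV-SNORA28 higher. The separation from all 7 members is thus what STAT3 showed against most expressed genes.

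**Figure D3:**
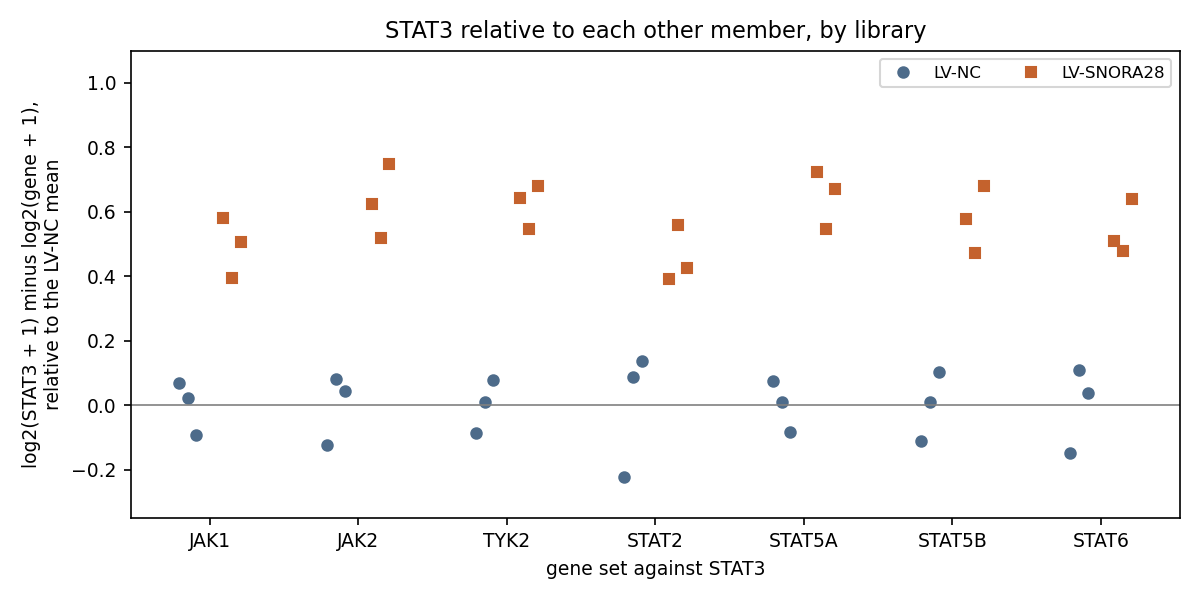
For each library, log2(FPKM + 1) of STAT3 minus that of the gene on the horizontal axis, set to 0 at the LV-NC mean. Blue circles are the 3 LV-NC libraries and orange squares the 3 LV-SNORA28 libraries. In all 7 comparisons the squares lie above the circles, by 0.46 on average against STAT2 and by 0.63 against JAK2. The 0.65 against STAT5A depends on the pseudocount and is 1.21 with 0.1. The other differences are also larger with 0.1, from 0.51 against STAT2 to 0.74 against JAK2.

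The order of the members changed accordingly. FPKM is scaled to length, but not for the shared stretches and overlapping genes given above, so the order between members is approximate. In LV-NC the order was STAT6 (9.62 FPKM), JAK1 (8.99), TYK2 (7.47), STAT3 (6.21), STAT2 (5.30), STAT5B (1.43), JAK2 (1.29) and STAT5A (0.11). The values of STAT6 and JAK1, of STAT3 and STAT2, and of STAT5B and JAK2 overlapped between libraries. In LV-SNORA28 STAT3 stood at 9.58 FPKM between STAT6 (9.65) and JAK1 (9.41), and these 3 overlapped. TYK2 (7.04), STAT2 (5.69), STAT5B (1.39), JAK2 (1.16) and STAT5A (0.04) followed without overlap.

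As a share of the summed FPKM of the 5 STAT members, STAT3 took 24.9%, 29.1% and 28.8% in LV-NC and 35.6%, 36.2% and 37.3% in LV-SNORA28. The difference was 8.79 percentage points, with means of 27.6% ± 2.33 (SD, n = 3) and 36.4% ± 0.857 (SD, n = 3) and an exact permutation p of 0.1, the smallest possible. The share of STAT6 went from 42.4% ± 1.02 to 36.7% ± 1.70 (SD, n = 3), although its own level was 9.62 FPKM in LV-NC and 9.65 FPKM in LV-SNORA28. Without STAT3, the other 4 STATs summed to 16.5 ± 2.76 FPKM in LV-NC and 16.8 ± 0.966 FPKM in LV-SNORA28 (SD, n = 3).

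A JAK and a STAT outside the 8 members were read as well, since both are mainly genes of blood cells. JAK3, the kinase of the common γ chain, measured 1.06, 1 and 0.85 FPKM in LV-NC, against 1.05, 0.76 and 0.91 FPKM in LV-SNORA28, and these overlapped. STAT4, the factor of interleukin 12, measured 0.46, 0.65 and 0.46 FPKM in LV-NC, against 0.8, 0.87 and 0.93 FPKM in LV-SNORA28. The STAT4 groups lay apart and the ratio of the means was 1.66, near that of STAT3. Its log2 fold change was 0.30 (SE 0.10), and in the unfiltered limma fit its p was 0.0224 before adjustment and 0.238 after it, so it did not pass.

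The position of STAT3 was considered next, because STAT5B, STAT5A and STAT3 lie side by side on chromosome 17 (GRCh38, STAT3 chr17:42313324-42388540, minus strand). Within 250 kb of STAT3, 14 other genes were tested, and their median log2 fold change was 0.06. The nearest tested neighbours on either side were STAT5B, given above, and CAVIN1, a coat protein of caveolae, with 47.0 ± 1.44 FPKM (SD, n = 3) in LV-NC against 49.8 ± 2.03 FPKM (SD, n = 3) in LV-SNORA28 (log2 fold change 0.08, limma adjusted p 0.414). In limma 2 of the 14 were called lower and 0 higher, against 2.1% and 6.81% of all genes tested, and counts over 14 genes say little about the region. MLX, PSMC3IP and TUBG1, named after their values were seen, were called higher on TPM, and MLX also when genes averaging under 5 FPKM were left out.

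The 2 neighbours that were called were lower in LV-SNORA28. RAB5C, a GTPase of early endosomes, had 42.18, 49.82 and 51.28 FPKM in LV-NC against 26.9, 26.94 and 26.37 FPKM in LV-SNORA28. Its LV-SNORA28 values were nearly equal and far below LV-NC, and its log2 fold change was -0.81 (SE 0.08, limma adjusted p 0.00596). NAGLU, a lysosomal enzyme that breaks down heparan sulfate, fell from 6.85 ± 0.793 to 4.74 ± 0.314 FPKM (SD, n = 3; log2 fold change -0.45, limma adjusted p 0.0372). With 1 library left out, RAB5C passed in 6 of 6 fits and NAGLU in 1, with a NAGLU adjusted p of up to 0.121 without LV-SNORA28 replicate 2.

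**Figure D4:**
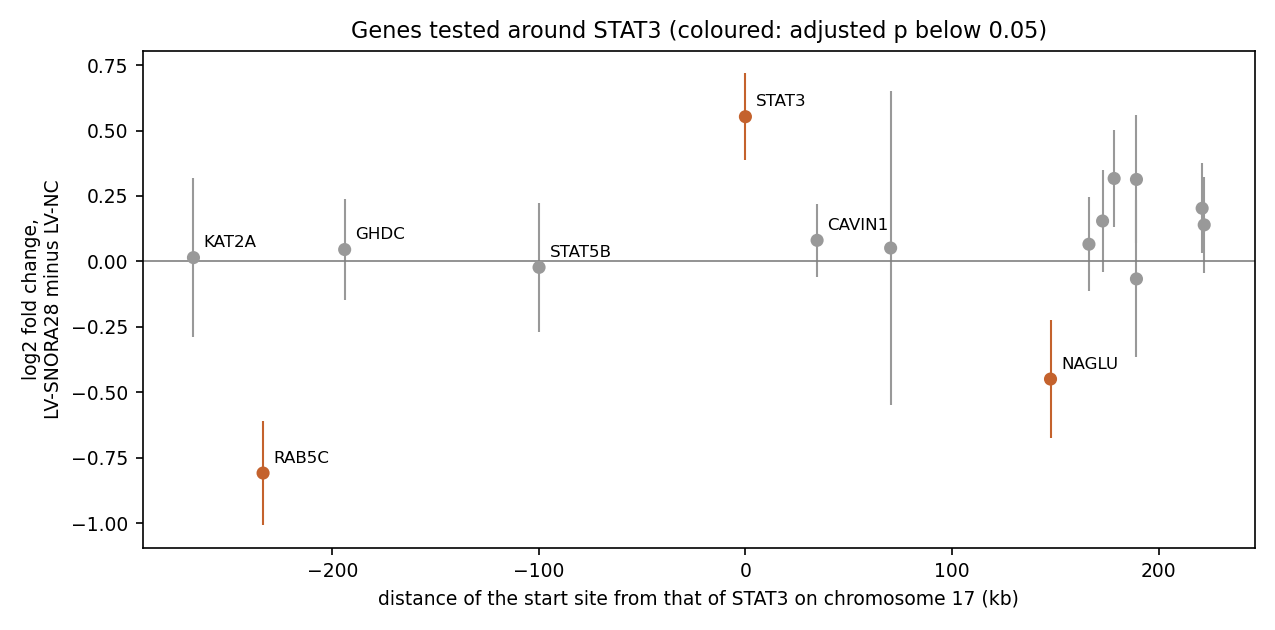
Log2 fold change with 95% interval (vertical axis, LV-SNORA28 minus LV-NC) of the genes tested within 250 kb of STAT3, by the distance of their start site from that of STAT3 in kb. Orange points have a limma adjusted p below 0.05. In the fit as reported, STAT3 at 0.55 is the single gene called higher (on TPM, MLX, PSMC3IP and TUBG1 are too), RAB5C (-0.81) and NAGLU (-0.45) are lower, and STAT5B and CAVIN1 beside it lie at -0.02 and 0.08.

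STAT3 is known to bind DNA at paired short sites and can act on its own promoter, so the bases before its start were searched. The part of its RefSeq promoter that lies outside the annotated gene (GRCh38.p14, chr17:42388541-42388692, minus strand) is shown with the match in capitals.
STAT3 promoter: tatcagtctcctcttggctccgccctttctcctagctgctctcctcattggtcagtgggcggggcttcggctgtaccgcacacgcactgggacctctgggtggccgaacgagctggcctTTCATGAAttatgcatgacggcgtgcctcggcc

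The motifs searched were TTCNNGAA, TTCNNNGAA and TTCNNNNGAA, which read the same on both strands, in windows of 300 bases from RefSeq. STAT3 held TTCNNGAA once, at chr17:42388566-42388573. JAK1 held TTCNNGAA and STAT5A held TTCNNNNGAA, each in 1 of its 3 windows, and the other members held none in theirs. The 8 members had 15 windows in all, with 1 for STAT3 and 4 for JAK2, each searched for every motif. Among all 35116 promoter windows, 7.74% held TTCNNGAA, 7.66% held TTCNNNGAA and 6.44% held TTCNNNNGAA. The match is a description of the letters and not a measured site.

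The genes whose values followed those of STAT3 most closely over the 6 libraries included FBXO33, GIT1, SEPTIN3 and TBC1D22B. Likeness was the root mean square difference of log2(FPKM + 1), each gene centred on its mean. It was 0.0256 to 0.0300 for these 4, with log2 fold changes of 0.53 to 0.58. A change like that of STAT3 is what this choice selects, so it is a description of these genes and no finding. FBXO33, an F-box protein, measured 3.73, 3.31 and 3.47 FPKM in LV-NC, against 5.52, 5.23 and 5.82 FPKM in LV-SNORA28. Among the members, JAK1 was the closest to STAT3 at 0.26, with 5276 genes closer.

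The rest of the pathway was read by role, from lists of 239 genes compiled from general knowledge. Of the 129 that were tested, 16 were called higher and 3 lower, which is 14.7% against 8.91% of all genes tested. Their median log2 fold change was 0.12, against 0.09 for all genes. Of the 129, 14 had a larger log2 fold change than STAT3, as did 3.67% of all genes tested. With any 1 of the 6 libraries left out, 6 to 11 were called, or 4.69% to 8.46%, while the share of all genes called fell to between 2.3% and 5.22%. Of the 19, 6 stayed called in all of those fits, namely OSMR, SND1, CCND1, JUNB, HSPB1 and PIM2.

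Receptors and ligands were listed first. Of 19 receptors tested, 3 were higher and none lower, where all genes gave 6.81% and 2.1%. The median of the receptors was 0.16. The 3 called were OSMR, a gp130 partner chain for oncostatin M, IFNAR1, a chain of the interferon α/β receptor, and IL22RA1, a chain of the interleukin 22 receptor. OSMR had 7.02, 5.48 and 7.08 FPKM in LV-NC against 12.33, 11.2 and 13.4 FPKM in LV-SNORA28, with a log2 fold change of 0.83 (limma adjusted p 0.0112). The study picked OSMR, LIFR and SOCS1 from these libraries, so the values of OSMR and LIFR here are no independent evidence. From later experiments it concluded that LIFR, and not OSMR, mediates proliferation and radioresistance. LIFR is named outside the rule for that reason. It had 1.14, 0.43 and 0.77 FPKM in LV-NC against 1.45, 1.46 and 1.91 FPKM in LV-SNORA28. The LIFR groups did not overlap. Its log2 fold change of 0.57 (SE 0.16) had a limma adjusted p of 0.0817, so LIFR was not called. LIFR lay near the filter of 1 FPKM, where the added 1 lowers the change, and the ratio of its means was 2.06. By qRT-PCR the study reported higher LIFR mRNA in HCT116 cells that overexpressed SNORA28. It also reported higher LIFR protein in overexpressing cells. IFNAR1 (log2 fold change 0.40, limma adjusted p 0.0391) and IL22RA1 (0.49, 0.0335) did not pass in any fit with 1 library left out. IL22RA1 lay near the filter of 1 FPKM, with 0.75 ± 0.167 FPKM in LV-NC against 1.45 ± 0.0493 FPKM in LV-SNORA28 (SD, n = 3). Of 5 ligands tested, 0 were called in limma, against 8.91% of all genes tested.

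Among the genes that dampen the pathway, 14 SOCS, PIAS and related inhibitors were tested. In limma 0 were called, against 8.91% of all genes tested, and the median was 0.11. A count of 0 among 14 genes says little about this role. SOCS1, which the study picked from these libraries, was not among the 14 tested, so the count does not cover it. Of 9 phosphatases, PTPN11, which encodes SHP2, was higher, with a log2 fold change of 0.43 (limma adjusted p 0.0358). PTPN11 had 31.9 ± 2.45 FPKM in LV-NC against 43.3 ± 3.86 FPKM in LV-SNORA28 (SD, n = 3), and it did not pass in any fit with 1 library left out.

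Of 16 further kinases and adaptors, 4 were higher and none lower, where all genes gave 6.81% and 2.1%. Counts over lists this short say little about a role. The 4 called included MTOR, a growth kinase that also phosphorylates STAT3 on serine, with a log2 fold change of 0.57 (limma adjusted p 0.0308). The RAS exchange factor SOS1 (0.38, 0.0372) and the SRC family kinase FYN (0.42, 0.0423) were also among them. Without LV-SNORA28 replicate 3 the limma adjusted p of these 3 lay between 0.107 and 0.124. SOS1 and FYN were each called in 3 of 9 other alternatives and lost the call after quantile normalization, nuclear scaling, no filter, the replicate block and removal of the GC or length trend. Of 24 cofactors, 3 were higher, namely SND1, NCOA3 and KPNA1. SND1, a coactivator that binds STAT6, had 21.48, 21.49 and 22.76 FPKM in LV-NC against 34.37, 32.93 and 33.22 FPKM in LV-SNORA28, and its log2 fold change of 0.59 (limma adjusted p 0.00433) was near that of STAT3. The coactivator NCOA3 had 0.67 (adjusted p 0.0205) and the import receptor KPNA1 0.33 (adjusted p 0.0430) in limma, where with 1 library left out NCOA3 passed in 2 of 6 fits and KPNA1 in 0.

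Genes listed as targets of STAT3 were called in both directions. Of 22 tested, 2 were higher and 3 lower, where all genes gave 6.81% and 2.1%. The median log2 fold change of the 22 was 0.03, below the 0.09 of all genes. HSPB1, a small heat shock protein, had 131.54, 153.29 and 140.06 FPKM in LV-NC against 281.15, 281.01 and 246.36 FPKM in LV-SNORA28 (log2 fold change 0.92, limma adjusted p 0.00399). JUNB, an AP-1 factor, rose from 29.4 ± 2.23 to 45.1 ± 0.714 FPKM (SD, n = 3; log2 fold change 0.60, limma adjusted p 0.00760). CCND1, which encodes cyclin D1, measured 175.78, 176.95 and 190.37 FPKM in LV-NC, against 122.47, 124.29 and 123.61 FPKM in LV-SNORA28.

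The CCND1 groups were far apart, and its log2 fold change was -0.55 (limma adjusted p 0.00583). KLF4, a differentiation factor of the gut epithelium, fell by 0.31 on the log2 scale (limma adjusted p 0.0356) and passed in none of the fits with 1 library left out. LCN2, a secreted iron-carrier protein named after its values were seen, had -0.60 (limma adjusted p 0.0434) and passed in 1 of those fits. LCN2 lay near the filter of 1 FPKM, with 1.73 ± 0.373 FPKM in LV-NC against 0.793 ± 0.179 FPKM in LV-SNORA28 (SD, n = 3). BIRC5, which encodes survivin and which the study followed, is also named outside the rule. It had 6.7, 4.63 and 7.94 FPKM in LV-NC against 9.9, 11.37 and 12.09 FPKM in LV-SNORA28. The BIRC5 groups did not overlap, and its log2 fold change of 0.73 (SE 0.17) had a limma adjusted p of 0.051.

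Of 6 genes listed as STAT5 or STAT6 targets, the kinase PIM2 and the regulator ID1 were higher. PIM2 had 2.48, 2.56 and 2.34 FPKM in LV-NC against 4.18, 4.2 and 4.18 FPKM in LV-SNORA28 (log2 fold change 0.58, limma adjusted p 0.00741), and ID1 had 0.40 (limma adjusted p 0.0180). With 1 library left out, PIM2 passed in 6 of 6 fits and ID1 in 2. Of 18 targets of STAT2 and IRF9, 1 was higher, the interferon regulator IRF7 (log2 fold change 0.45, limma adjusted p 0.0470), whose adjusted p reached 0.148 without LV-SNORA28 replicate 3 and which was called in 3 of 9 other alternatives. The median of these interferon genes was 0.17. Among all genes tested 6.81% were called higher, so these short lists say little about a role.

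**Figure D5:**
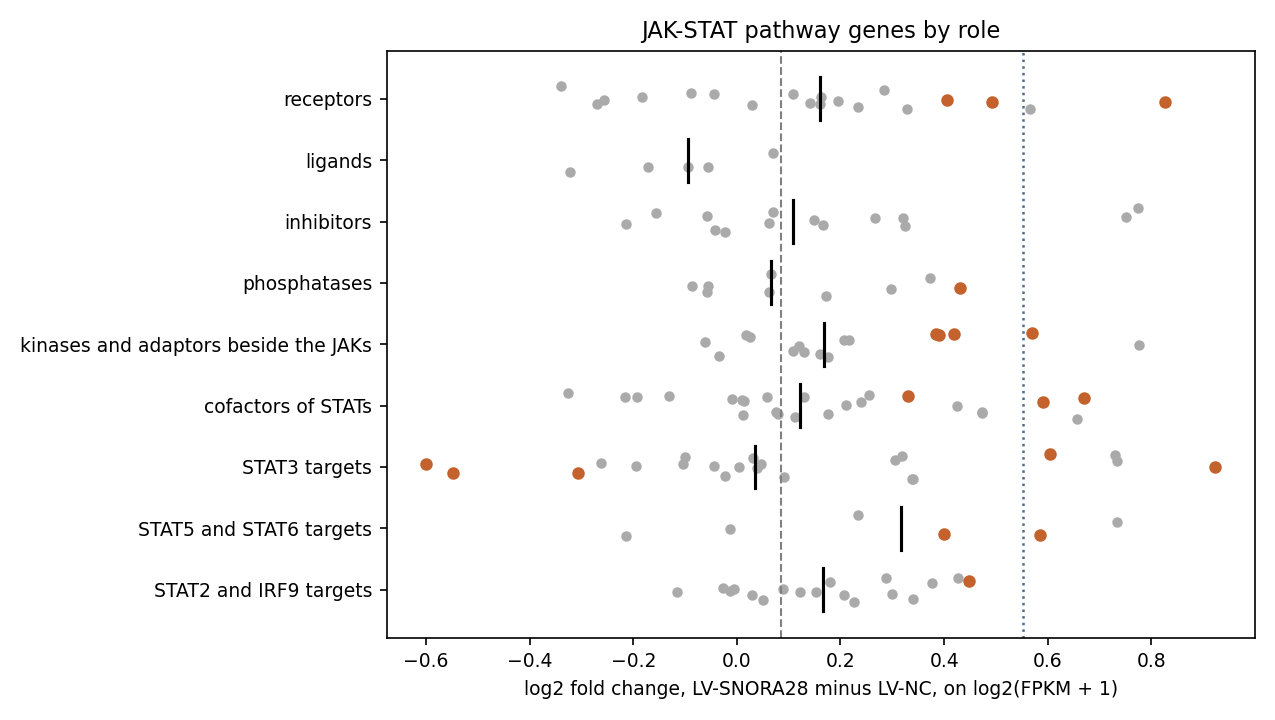
Log2 fold change (horizontal axis, LV-SNORA28 minus LV-NC) of the JAK-STAT pathway genes tested, by role, with orange points for a limma adjusted p below 0.05 and a black bar for the median of each list. The dashed line is the median of all genes tested, 0.09, and the dotted line is STAT3, 0.55. The STAT3 targets hold called genes on both sides, from -0.60 for LCN2 to 0.92 for HSPB1.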

How the data were processed

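Poly(A)-selected RNA of 6 HCT116 libraries was sequenced as paired ends from dUTP-stranded libraries, and groups were taken from sample titles. The authors deposited FPKM values with 2 decimals, 1 table per library. The submitters' processing notes name cutadapt 1.9, HISAT2 2.2.1, StringTie 2.1.6, DESeq2, edgeR and hg38, with no role or order. The annotation release, filters and mapped totals are not given in the sources used here, nor is the model behind the p-values of the study. Symbols and coordinates came from GENCODE release 44 on GRCh38 and matched 60401 of 60612 identifiers. The files hold no counts, so the depth is unknown and no counting interval is given.

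Values were transformed to log2(FPKM + 1), which understates the change of low genes. Genes that averaged 1 FPKM or more were fitted in limma 3.58.1 (R 4.3.3) with a mean-variance trend, with two-sided p-values adjusted by the Benjamini-Hochberg method over all 12076 genes. A gene was called at an adjusted p below 0.05. STAT5A, JAK3 and STAT4, below the filter, were read from the fit of all 32761 genes above 0. Exact permutation tests (two-sided, 3 libraries against 3) were run in Python 3.11.15. The fit was tested on simulated data.

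The members, lists and tests were chosen with earlier results of these data known. Named genes were the members, up to 4 called genes per list by lowest p, called genes and nearest neighbours around STAT3, and the 5 genes most like STAT3. The results of 2 genes that the rule names are not reported here. Alternatives were other scalings, filters, a pseudocount of 0.1, no trend, GC or length trends removed, a replicate block and each library left out. Promoter windows were RefSeq's (GRCh38.p14), and residue numbers came from translated GENCODE transcripts.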

Additional observations from a re-analysis of the deposited data

How the results depend on the processing

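STAT3 kept its rise and an adjusted p below 0.05 in limma under all 16 alternatives, with log2 fold changes from 0.45 to 0.74 and adjusted p from 0.00666 to 0.0455. With 1 library left out it ranged from 0.53 to 0.60. STAT3 remained the 1 member called in each. Its gain over each other member kept its direction, and no exact p fell below 0.1. The gain over STAT5A, 0.65 as reported, was 1.21 with a pseudocount of 0.1 and 0.97 on TPM. Over the other members the gain was 0.51 to 0.74 with a pseudocount of 0.1. With 1 library left out the gain ranged from 0.45 to 0.54 over JAK1, 0.57 to 0.69 over JAK2, 0.58 to 0.66 over TYK2, 0.35 to 0.53 over STAT2, 0.61 to 0.70 over STAT5A, 0.52 to 0.63 over STAT5B and 0.47 to 0.60 over STAT6. The difference in STAT3 share ranged from 7.45 to 9.53 points.

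The 19 pathway genes called became 12 after quantile normalization, 31 on TPM, 6 without a filter, 11 with the GC trend removed and 6 to 11 with 1 library left out. The 2 called neighbours of STAT3, both lower, became 4 on TPM (3 higher and 1 lower), 1 without a filter and 1 to 2 with 1 library left out. The 0 members at the threshold of the study became 1 on TPM and 1 with a pseudocount of 0.1, and 0 to 1 with 1 library left out. A fold change above 2 also gave 0. Leaving out a filter tests more genes, and leaving out a library uses fewer samples; otherwise the cause was not tested.

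No pairing by replicate number was seen, since same-numbered libraries deviated together with correlations of only -0.0441, 0.0914 and 0.00983. When that number entered as a replicate block, STAT3 had 0.55 (limma adjusted p 0.0384), 11 pathway genes and 1 neighbour were called, and the gain over each member had an exact p of 0.25, the smallest that 3 pairs allow.

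Members without a call changed sign as follows. JAK1 was -0.034 after quantile normalization, -0.028 with the GC trend and -0.043 with the length trend removed. JAK2 was 0.0075 on TPM and -0.13 to 0.016 with 1 library left out. TYK2 was 0.066 on TPM and -0.12 to 0.0046 with 1 left out. STAT2 was -0.0021 after quantile normalization and -0.0069 with the length trend removed. STAT5B was 0.090 on TPM and -0.089 to 0.063 with 1 left out. STAT6 was -0.085 after quantile normalization, -0.014 with nuclear scaling, -0.037 with the GC trend and -0.090 with the length trend removed, and -0.059 to 0.12 with 1 left out. The count models listed as alternatives need counts, which FPKM does not give, and were left out.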
